A study of Mus musculus with 12 samples.

Results

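The mitosis and kinetochore genes described here are 50 genes whose products enter, carry out or time cell division. They were chosen by name, with earlier results of these data known. Their probes are those whose gene name in the scanner files was 1 of the 50. All 50 names were found, on 71 probes. For 44 of the 50, a probe exceeded its background clearly on every array of some group, and these were among the 22755 genes tested. The other 6, Cdc25c, Ttk, Cenpf, Aurkb, Kif15 and Ncapg, were too dim to test.

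Entry into mitosis is driven by the kinase Cdk1 with its cyclins, which is switched on once DNA replication is complete. Kinetochores are protein assemblies that form on the centromere of each chromosome and hold the microtubules of the spindle, and the spindle checkpoint delays anaphase until all of them are attached. Most genes of this machinery are transcribed late in the cell cycle and are silent in resting cells, so that their mRNA is commonly read as a sign of dividing cells. The normal aorta is a tissue in which few cells divide.

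RNA of whole aortic tissue from male mice was measured on 12 one-colour microarrays, with 3 arrays in each of 4 groups. WT mice were homozygous for the floxed Socs3 allele and had no Cre transgene. In smSocs3-KO mice, littermates with the same floxed alleles, Cre was expressed from the smooth muscle SM22 promoter, so that other cells of the aorta would keep Socs3, a feedback inhibitor of cytokine signalling. The mice were young adults of mixed background, labelled 129S5/SvEvBrd, C57BL6 and SJL. In both genotypes, samples were taken before challenge and at day 3 of BAPN + AngII. BAPN (150 mg/kg/day) blocks the crosslinking of collagen and elastin, AngII (1000 ng/kg/min) is a vasoactive hormone, and their combination leads to aortic dissection in this model. The comparisons asked how these genes respond to the challenge within each genotype, and whether the genotypes differ. The arrays are called by group and by the replicate number in the labels, which is 1, 2 and 3 for WT before challenge, 1, 3 and 4 for WT at day 3, 1, 3 and 4 for smSocs3-KO before challenge, and 2, 3 and 5 for smSocs3-KO at day 3. Values are listed in that order.

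A level below is the log2 processed signal of a gene's probe minus the 75th percentile of its array, and a difference is a log2 difference of such levels with the SE and the Benjamini-Hochberg adjusted p of a limma model of all 4 groups. A gene counted as called at an adjusted p under 0.05. Levels of different probes cannot be set against each other. Between 55.4% and 61.2% of spots on an array were well above background, and no spot was saturated. Slide 1 held all 6 WT arrays and smSocs3-KO replicate 1 before challenge, and slide 2 held the remaining 5 smSocs3-KO arrays. The level of Socs3 was 0.15, 0.17 and 0.58 in WT and 0.10, 0.97 and 1.29 in smSocs3-KO before challenge, and 2.01, 2.13 and 0.47 in WT and 3.10, 2.08 and 3.93 in smSocs3-KO at day 3. The group means were thus not lower on the arrays labelled smSocs3-KO, although replicate 1 before challenge, the one on the slide of the WT arrays, lay below all 3 WT arrays. With slide as a block, the Socs3 difference, smSocs3-KO minus WT, was -0.20 before challenge, a value set by that replicate 1 alone. No other smSocs3-KO array was on slide 1, so every slide term below rests on it. At day 3 the Socs3 difference with slide as a block stayed positive with all arrays kept. It was -0.07 when WT replicate 4 was left out as well. Whether the Socs3 probe lies in the floxed part of the gene was not examined, and smSocs3-KO below means the arrays so labelled. The lowest day 3 value of Socs3 was that of WT replicate 4, an array that also stood apart in nearly all mitosis genes.

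In WT mice, the mitosis and kinetochore genes were far higher at day 3 of BAPN + AngII than before challenge. Of the 29 genes that were well above background on all 12 arrays, 26 rose and none fell, with a median difference of 3.64. In the same test restricted to genes well above background on all 12 arrays, 4.80% of 19534 genes rose. Among all 44 genes tested, 41 rose, beside 3.50% of the 22755 genes. The count of 41 is raised by the filter, because 13 genes were kept only through their day 3 arrays. At the threshold of the study, a p under 0.01 and a fold change above 4, 39 of the 44 genes were higher, beside 1.07% of all genes tested. The WT groups did not overlap, with every day 3 array above every array before challenge, for 42 of 44 genes, beside 20.0% of all genes. The filter can raise the counts of 39 and 42 in the same way. Of the 29 genes well above background on all 12 arrays, 24 were past the threshold of the study. In the test restricted to such genes, 122 of 19534 were higher and past it. The median difference was 3.84 over the 44 genes, or 3.66 with the 11 genes that were dim on all 3 WT arrays before challenge at a lower bound, and -0.04 over all genes tested. Medians of smaller groups below use the fitted values. With normexp background correction the median was 2.47. The adjusted calls depended on the filter and on single arrays. Without a filter on dim probes, 2 mitosis genes were called, and 5 of all 34794 genes were called higher. Without WT replicate 1, 2 or 3 before challenge, WT replicate 1 or 3 at day 3, or smSocs3-KO replicate 4 before challenge, 0 of the 44 genes passed the adjusted threshold, with smallest adjusted p between 0.0526 and 0.146. In a fit of the 6 WT arrays alone, 0 of them passed (smallest adjusted p = 0.0799), and with the replicate number as a block, 0 passed too (smallest adjusted p = 0.0572). Over all 22755 genes, 0 were called higher in both of these fits, and from 0 to 2 in the fits without those single arrays. With any 1 of the 12 arrays left out, between 37 and 41 genes were past the threshold of the study, and the median difference lay between 3.40 and 4.75.

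**Figure D1:**
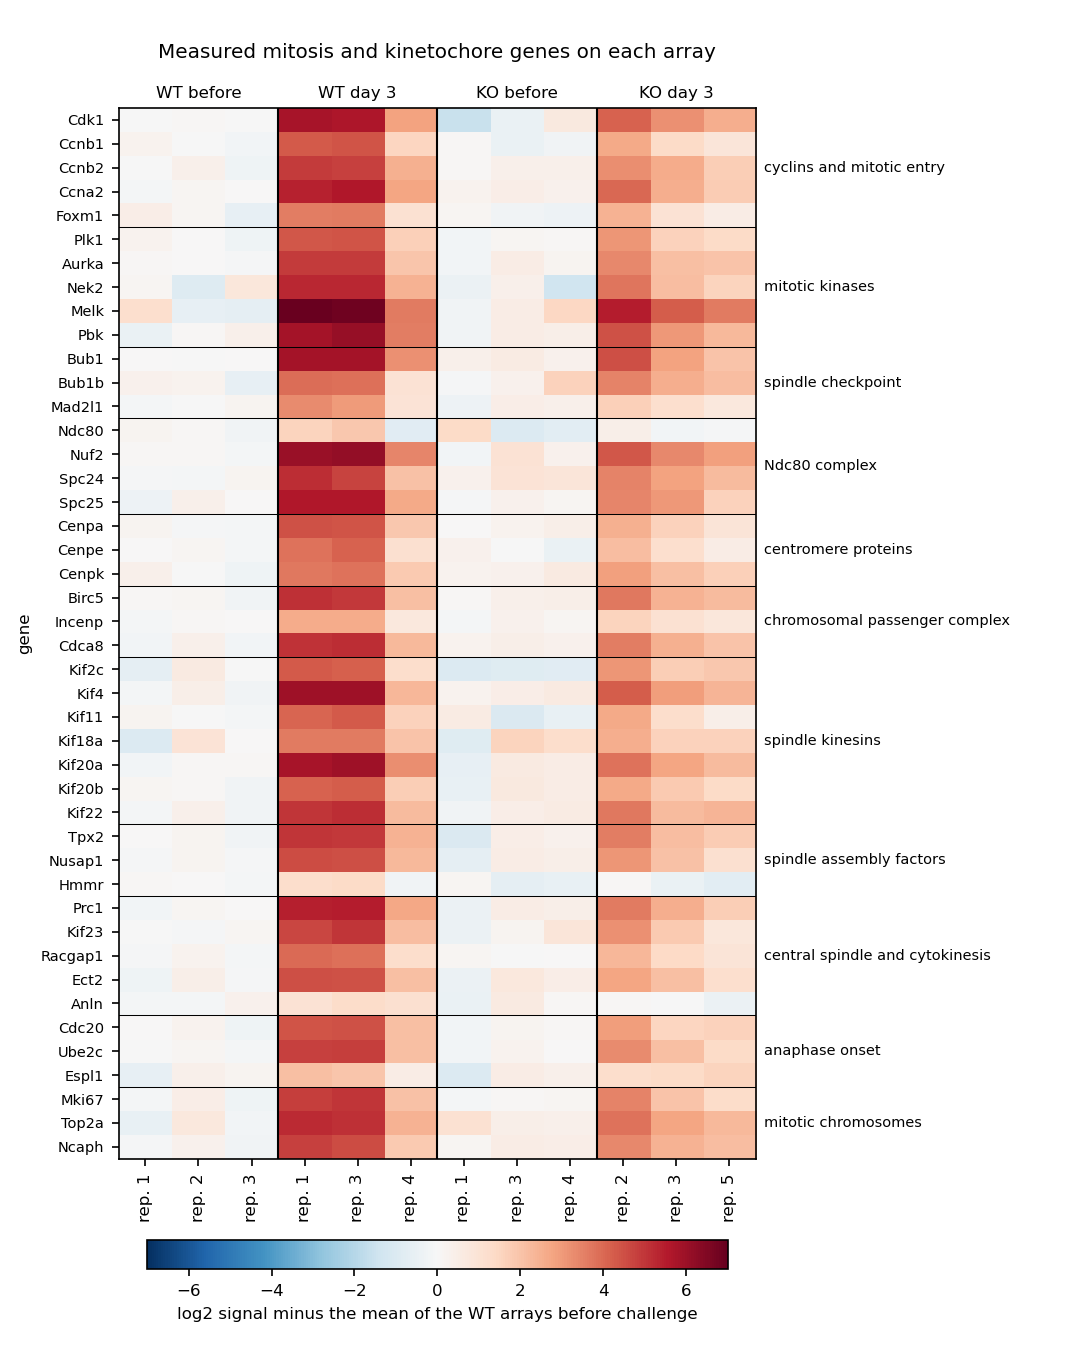
Levels of the 44 measured mitosis and kinetochore genes (rows, grouped by role) on each of 12 arrays (columns, with the replicate number), as the log2 signal minus the mean of the WT arrays before challenge (colour). The day 3 arrays are red in nearly all rows, WT replicates 1 and 3 most strongly, and the rows of Ndc80, Hmmr, Espl1 and Anln are the palest.

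The genes that start mitosis rose together in WT mice. All 5 measured genes of cyclins and mitotic entry were called, with a median difference of 4.05. Cdk1, the kinase that drives cells into mitosis, was at -4.74, -4.65 and -4.75 in WT mice before challenge and at 1.04, 0.95 and -1.88 at day 3. The 3 values before challenge were not well above background, and those of day 3 all lay higher. Cdk1 was therefore at least 23.1-fold higher (adjusted p = 0.0304), a bound that takes the higher of the dim value and the lowest signal well above background on each array. Such a bound compares group means, so single arrays can lie below it. The adjusted p beside a bound is that of the fitted difference. The smSocs3-KO levels of Cdk1 were -6.26, -5.15 and -4.01 before challenge and -0.57, -1.53 and -2.19 at day 3. Cyclin A2 (Ccna2), which partners Cdk1 and Cdk2, was at -2.46, -2.22 and -2.33 and then 3.05, 3.27 and 0.43 in WT mice. It rose by 4.59 ± 0.70 (SE, adjusted p = 0.0297), and in smSocs3-KO mice it was at -2.08, -1.87 and -2.02 and then 1.68, 0.21 and -0.54. The mitotic cyclin Ccnb1 went from -1.87, -2.15 and -2.34 to 2.16, 2.27 and -0.61 in WT mice, with a difference of 3.39 ± 0.69 (SE, adjusted p = 0.0333). In smSocs3-KO mice, Ccnb1 was at -2.02, -2.59 and -2.36 before challenge and 0.55, -0.81 and -1.30 at day 3. Foxm1, a transcription factor that activates mitotic genes, had levels of -2.68, -3.04 and -3.74 in WT mice before challenge and 0.45, 0.47 and -2.11 at day 3. The rise of Foxm1 was 2.76 ± 0.67 (SE, adjusted p = 0.0464), and WT replicate 4 lay only a little above the highest array before challenge. Its smSocs3-KO levels were -3.01, -3.41 and -3.50 and then -0.72, -2.12 and -2.64. Ccnb2, a further mitotic cyclin, rose by 4.05 ± 0.57 (SE, adjusted p = 0.0282). Cdc25c, the phosphatase that activates Cdk1, was well above background on only 3 of 12 arrays, 2 of WT mice at day 3 and 1 of smSocs3-KO mice at day 3, and was not tested.

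All 5 mitotic kinases rose in WT mice, with a median difference of 4.33. Plk1, which acts in centrosome maturation and spindle assembly, was at -1.08, -1.29 and -1.66 before challenge and 2.99, 3.03 and 0.30 at day 3 in WT mice. Its rise was 3.46 ± 0.66 (SE, adjusted p = 0.0333). In smSocs3-KO mice Plk1 was at -1.52, -1.19 and -1.28 and then 1.72, 0.27 and -0.01. Aurka, the kinase of the spindle poles, was at -2.55, -2.58 and -2.70 and then 2.28, 2.28 and -0.69 in WT mice, a rise of 3.90 ± 0.68 (SE, adjusted p = 0.0318). The smSocs3-KO levels of Aurka were -2.80, -2.11 and -2.42 before challenge and 0.77, -0.50 and -0.61 at day 3. Melk, a kinase of proliferating cells, had the largest fitted difference of all 44 genes in both challenge responses. Its levels in WT mice were -4.80, -6.57 and -6.64 before challenge, none of them well above background, and 0.89, 0.80 and -2.35 at day 3, so that it was at least 19.4-fold higher (adjusted p = 0.0297). Pbk was well above background on 1 of 3 WT arrays before challenge and rose by 5.17 ± 0.67 (SE, adjusted p = 0.0282). Nek2, a centrosomal kinase, was not well above background on any of the 6 arrays before challenge and was at least 8.63-fold higher (adjusted p = 0.0333) in WT mice at day 3.

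Of the spindle checkpoint, all 3 measured genes rose. Bub1, a checkpoint kinase of the kinetochore, was at -5.85, -5.88 and -5.85 in WT mice before challenge, not well above background, and at -0.03, -0.05 and -2.69 at day 3. It was at least 11.9-fold higher (adjusted p = 0.0283). Its smSocs3-KO levels were -5.49, -5.30 and -5.55 and then -1.38, -3.06 and -3.87. Bub1b, the inhibitor of the anaphase-promoting complex also known as BubR1, was at least 6.41-fold higher (adjusted p = 0.0495). Mad2l1, which is part of the same inhibitory complex, was at -1.08, -0.95 and -0.75 in WT mice before challenge and at 2.36, 2.03 and 0.03 at day 3 on its brightest probe. That probe rose by 2.40 ± 0.51 (SE, adjusted p = 0.0359), and in smSocs3-KO mice it was at -1.27, -0.49 and -0.57 and then 0.75, 0.26 and -0.19. Its other probes gave 2.02 (adjusted p = 0.0662) and 1.18 (adjusted p = 0.177), so that the call rests on 1 of 3 probes. Ttk, the kinase Mps1 that starts checkpoint signalling, was well above background only on 2 WT arrays and 1 smSocs3-KO array of day 3, and was not tested.

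The Ndc80 complex of 4 subunits couples the kinetochore to the microtubule, and 3 of its genes rose. Nuf2 was at -5.87, -5.84 and -6.10 in WT mice before challenge, not well above background, and at 0.09, 0.23 and -2.54 at day 3. It was at least 13.5-fold higher (adjusted p = 0.0282). Spc24 was at least 12.8-fold higher (adjusted p = 0.0304). Spc25 was at -1.93, -1.24 and -1.57 and then 4.02, 4.02 and 1.09 in WT mice, a rise of 4.62 ± 0.71 (SE, adjusted p = 0.0297), and at -1.68, -1.30 and -1.46 and then 1.84, 1.43 and 0.04 in smSocs3-KO mice. Ndc80, the subunit that gives the complex its name, was not called. Its WT levels were -1.55, -1.68 and -2.02 before challenge and -0.20, 0.13 and -2.52 at day 3, and replicate 4 lay below all 3 arrays before challenge. The WT difference of Ndc80 was 0.89 ± 0.70 (SE, adjusted p = 0.437). In smSocs3-KO mice it was at -0.41, -2.68 and -2.51 before challenge, where replicate 1 was the highest of all 6 smSocs3-KO arrays, and at -1.34, -1.92 and -1.82 at day 3. The Ndc80 probe is placed by the array files at chr17:71860793-71861755 (mm9), over more bases than a probe holds, as are the probes of Cenpa, Kif23 and Espl1.

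All 3 measured centromere proteins rose. Cenpa, the histone H3 variant that marks centromeres, was at -2.36, -2.61 and -2.67 before challenge and 1.94, 1.86 and -0.65 at day 3 in WT mice, and rose by 3.59 ± 0.60 (SE, adjusted p = 0.0304). Its smSocs3-KO levels were -2.52, -2.31 and -2.15 before challenge and -0.05, -0.93 and -1.62 at day 3. Cenpe, a kinetochore motor that aligns chromosomes, was at -0.96, -0.87 and -1.16 and then 2.81, 3.13 and 0.11 in WT mice. It rose by 3.02 ± 0.68 (SE, adjusted p = 0.0386), and was at -0.72, -1.03 and -1.45 and then 1.17, 0.16 and -0.50 in smSocs3-KO mice. Cenpk, a subunit of the inner kinetochore, rose by 3.12 ± 0.48 (SE, adjusted p = 0.0297). Cenpf, a large protein of the outer kinetochore, was well above background on 1 of 12 arrays and was not tested.

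The chromosomal passenger complex corrects faulty attachments and acts in cytokinesis. Birc5, which encodes its subunit survivin, was at -0.48, -0.43 and -0.86 in WT mice before challenge and 4.53, 4.36 and 1.51 at day 3, and rose by 4.06 ± 0.68 (SE, adjusted p = 0.0304). In smSocs3-KO mice Birc5 was at -0.49, -0.23 and -0.18 and then 3.13, 1.85 and 1.61. Incenp, the scaffold of the complex, rose less, by 1.97 ± 0.43 (SE, adjusted p = 0.0368). Its WT levels were 1.05, 1.25 and 1.21 before challenge and 3.74, 3.78 and 1.90 at day 3, and its smSocs3-KO levels 1.03, 1.47 and 1.32 and 2.74, 2.24 and 1.98. Cdca8, which encodes borealin, rose by 4.16 ± 0.67 (SE, adjusted p = 0.0304). The kinase of the complex, Aurkb, could not be followed. Its single probe was well above background on WT replicate 1 before challenge, at -2.18, and on no other array, and its day 3 values of -6.76, -6.16 and -6.53 in WT and -7.21, -6.44 and -6.97 in smSocs3-KO mice were not well above background. It was the only one of the 6 dim genes with no array above background at day 3.

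The spindle motors and assembly factors rose, with 1 exception. All 7 measured spindle kinesins were called. Kif11, the motor that pushes the spindle poles apart, was at -4.45, -4.68 and -4.75 in WT mice before challenge, not well above background, and -0.53, -0.35 and -2.99 at day 3, and was at least 9.24-fold higher (adjusted p = 0.0368). Its smSocs3-KO levels were -4.03, -5.65 and -5.13 and then -1.98, -3.42 and -4.20. Kif20a, a kinesin of the central spindle, was at -3.46, -3.14 and -3.15 and then 2.50, 2.70 and 0.01 in WT mice. It rose by 4.99 ± 0.66 (SE, adjusted p = 0.0282), the largest rise among the genes well above background on all 12 arrays, and was at -3.81, -2.60 and -2.71 and then 0.58, -0.51 and -1.04 in smSocs3-KO mice. Kif20b and Kif22 rose by 3.37 and 4.12. Kif2c, Kif4 and Kif18a were dim before challenge and were at least 5.27-fold, 6.87-fold and 4.48-fold higher at day 3. Kif15 was well above background only on 4 day 3 arrays and was not tested.

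Tpx2, which activates Aurka on the spindle, was at -3.11, -2.93 and -3.40 in WT mice before challenge and 1.87, 1.80 and -0.73 at day 3. It rose by 4.13 ± 0.69 (SE, adjusted p = 0.0304), and its smSocs3-KO levels were -4.14, -2.71 and -2.83 and then 0.42, -1.01 and -1.36. Nusap1, a microtubule-binding protein, rose by 3.78 ± 0.64 (SE, adjusted p = 0.0304). Hmmr, the hyaluronan receptor RHAMM that also acts at spindle poles, was the exception. Its WT levels were 1.09, 1.02 and 0.83 before challenge and 2.20, 2.33 and 0.71 at day 3, so that replicates 1 and 3 lay above and replicate 4 below the arrays before challenge. The WT difference was 0.77 ± 0.40 (SE, adjusted p = 0.243), the smallest of the 44 genes. In smSocs3-KO mice Hmmr was at 1.1, 0.34 and 0.49 before challenge and 1.06, 0.49 and 0.23 at day 3, and the groups overlapped.

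Genes that end mitosis were also called, with the exception of Espl1. Prc1, which bundles the microtubules of the central spindle, was at -1.62, -1.29 and -1.40 and then 4.0, 4.06 and 1.29 in WT mice, a rise of 4.55 ± 0.69 (SE, adjusted p = 0.0297). Its levels in smSocs3-KO mice were -1.83, -0.90 and -1.03 before challenge and 2.19, 1.13 and 0.29 at day 3. Kif23, Racgap1 and Ect2, which position and start the cleavage furrow, rose by 3.97, 3.01 and 3.69. A second probe of Racgap1 gave 2.03 and was not called (adjusted p = 0.0595). On its brightest probe, Racgap1 was at -1.65, -1.33 and -1.73 in WT mice before challenge and at 2.39, 2.28 and -0.34 at day 3, and at -1.42, -1.61 and -1.55 and then 0.77, -0.19 and -0.67 in smSocs3-KO mice. Cdc20, the activator of the anaphase-promoting complex, was at -0.73, -0.48 and -1.03 and then 3.63, 3.72 and 1.35 in WT mice. It rose by 3.64 ± 0.57 (SE, adjusted p = 0.0304), with smSocs3-KO levels of -0.92, -0.56 and -0.65 and then 2.17, 0.74 and 0.89. Ube2c, the ubiquitin-conjugating enzyme of that complex, rose by 3.92 ± 0.67 (SE, adjusted p = 0.0310). Espl1, the protease separase that cuts cohesin, was at -3.08, -2.14 and -2.31 in WT mice before challenge and -0.42, -0.56 and -1.99 at day 3. All 3 day 3 values were higher, replicate 4 by little, and the difference was 1.52 ± 0.47 (SE, adjusted p = 0.0786). Its smSocs3-KO levels were -3.45, -2.0 and -2.13 and then -1.27, -1.17 and -0.97, again without overlap.

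Anln encodes anillin, a scaffold of the contractile ring, and differed from the other genes in which arrays were high. Its WT levels were 3.16, 3.12 and 3.55 before challenge and 4.31, 4.54 and 4.42 at day 3. All 3 day 3 arrays were alike, and Anln was the only gene of the 44 in which WT replicate 4 was not the lowest day 3 WT array. The rise was small but called, at 1.15 ± 0.26 (SE, adjusted p = 0.0391). In smSocs3-KO mice Anln was at 2.82, 3.91 and 3.34 before challenge and 3.35, 3.24 and 2.85 at day 3, and no array of that genotype reached the WT arrays of day 3. Its probe was measured on all 12 arrays and lies at chr9:22136685-22136744 (mm9).

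Mki67 encodes Ki67, the coat protein of mitotic chromosomes that is stained as a marker of proliferation. Its WT levels were -0.69, -0.06 and -0.85 before challenge and 4.33, 4.48 and 1.52 at day 3, a rise of 3.98 ± 0.73 (SE, adjusted p = 0.0320). The smSocs3-KO levels of Mki67 were -0.66, -0.46 and -0.42 before challenge and 2.94, 1.47 and 0.73 at day 3. Top2a, the topoisomerase that untangles chromosomes, was at -4.51, -3.26 and -4.18 and then 1.25, 1.11 and -1.57 in WT mice. It rose by 4.24 ± 0.69 (SE, adjusted p = 0.0304), and was at -2.94, -3.59 and -3.65 and then -0.19, -1.24 and -1.74 in smSocs3-KO mice. Ncaph, a condensin subunit, rose by 3.72 ± 0.65 (SE, adjusted p = 0.0318). Its partner Ncapg was well above background only on WT replicates 1 and 3 at day 3, at -3.26 and -3.31, and was not tested. In whole tissue, more cells that express a gene and more RNA of it per cell cannot be told apart.

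**Figure D2:**
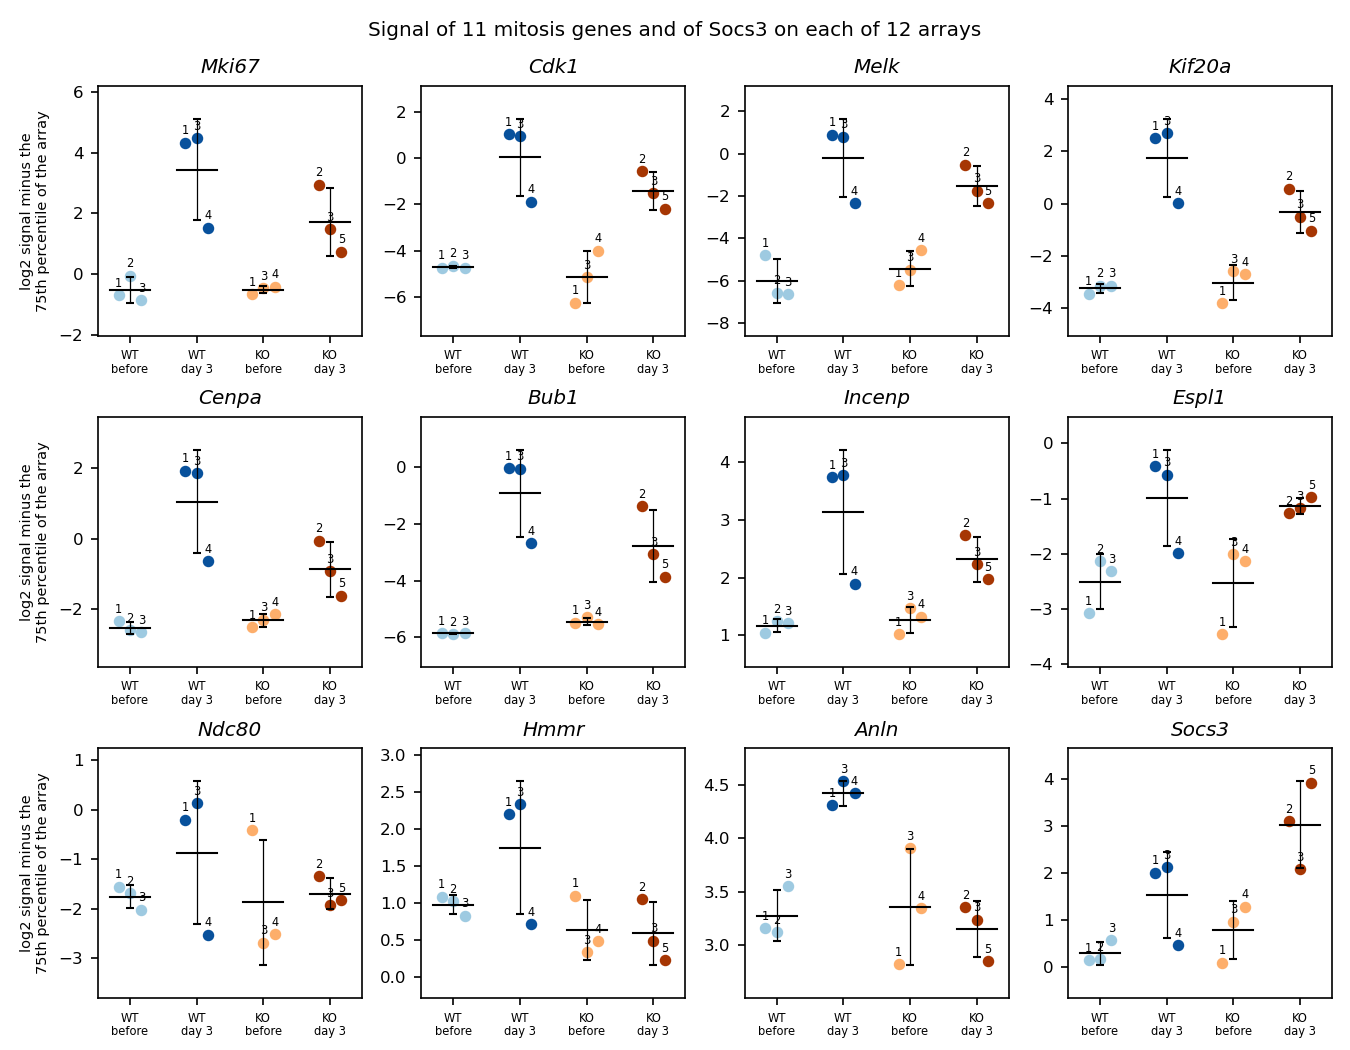
Level (log2 signal minus the 75th percentile of the array) of 11 mitosis genes and of Socs3 on each array, with the replicate number beside each point, the group mean as a bar and the SD as an error bar (n = 3). KO stands for the arrays labelled smSocs3-KO. WT replicate 4 at day 3 lies far below replicates 1 and 3 in every panel but that of Anln.

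Replicate 4 of the WT mice at day 3 was the lowest of the 3 WT arrays in 43 of the 44 genes, beside 39.0% of all genes tested. Its level was below the mean of replicates 1 and 3 by a median of 2.69, with differences from -3.59 to -0.0020. Replicates 1 and 3 differed from each other by a median of only 0.11 in these genes, compared with 0.27 over all genes. Replicate 4 was nonetheless above all 6 arrays before challenge in 41 of 44 genes, beside 24.2% of all genes. On the same array, the mean of 8 smooth muscle marker genes was at 0.08 relative to the WT mean before challenge, compared with -0.70 and -0.70 on replicates 1 and 3. The mean of 10 macrophage marker genes was at -0.05, compared with 1.63 and 1.25. Some other marker lists were not near 0 on replicate 4. Neutrophil markers were at 1.06, compared with 0.25 and 0.22, and T cell and thymocyte markers at -1.80, compared with -1.52 and -1.26. Erythroid markers, at 1.09, lay between the 0.70 and 1.45 of replicates 1 and 3. The share of spots well above background was 55.4% on replicate 4 and 55.6% on replicate 3. What part these differences have in the levels of the mitosis genes was not tested. Among the smSocs3-KO arrays of day 3, replicate 2 was the highest in 43 of 44 genes, beside 28.2% of all genes, and exceeded replicate 5 by a median of 1.58.

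In mice labelled smSocs3-KO, the mitosis and kinetochore genes were higher at day 3 too, by a median of 2.18, or 1.98 with the 6 genes dim on all 6 arrays before challenge at a lower bound. The median of all genes was -0.11. Of the 44 genes, 5 rose at the adjusted threshold, beside 1.57% of all genes, and 22 were past the threshold of the study, beside 1.34%. With normexp background correction, 3 genes were past that threshold, 0 were called, and the median was 1.15, and with the replicate number as a block 1 was past it and 0 were called. The groups did not overlap for 39 genes, beside 12.7% of all genes. The filter can raise the counts of 5, 22 and 39, because 13 of the 44 genes were kept only through their day 3 arrays. In the fit of all genes tested, 11 of the 29 genes well above background on all 12 arrays were past the threshold of the study. Of the 29 genes well above background on all 12 arrays, 0 passed the adjusted threshold in limma, 23 had an unadjusted p under 0.05, beside 25.1% of the genes measured so, and their median difference was 1.97. The 5 called genes were thus all dim before challenge on some array. Cdk1, well above background on 1 of the 3 smSocs3-KO arrays before challenge, rose by 3.71 ± 0.77 (SE, adjusted p = 0.0393), and Melk, likewise on 1 of 3, by 3.89 ± 0.87 (SE, adjusted p = 0.0460). For Melk the levels were -6.23, -5.49 and -4.58 before challenge and -0.52, -1.75 and -2.35 at day 3. Pbk rose by 3.01 ± 0.67 (SE, adjusted p = 0.0451). Nuf2, at -6.14, -4.92 and -5.66 before challenge and -1.59, -2.59 and -3.09 at day 3, was at least 4.54-fold higher (adjusted p = 0.0401). Kif2c, which depolymerises microtubules at kinetochores, was at least 2.96-fold higher (adjusted p = 0.0499). In a limma fit of single probes neither of its probes was called, and the dimmer one gave 2.29 (adjusted p = 0.105). The smallest differences were those of Anln, at -0.21 ± 0.26 (SE, adjusted p = 0.622), and Hmmr, at -0.05 ± 0.40 (SE, adjusted p = 0.946), and both changed sign with the scaling to the array median.

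Between these ends, the smSocs3-KO differences of the cyclins were 2.44 for Ccna2, 2.26 for Ccnb2 and 1.81 for Ccnb1, none of them called. Mki67 had a difference of 2.23 ± 0.73 (SE, adjusted p = 0.113) and Kif20a one of 2.72 ± 0.66 (SE, adjusted p = 0.0592). Top2a, at 2.34 ± 0.69 (SE, adjusted p = 0.0885), and Birc5, at 2.50 ± 0.68 (SE, adjusted p = 0.0743), lay in the same range. For Aurka the difference was 2.33 ± 0.68 (SE, adjusted p = 0.0877) and for Plk1 1.99 ± 0.66 (SE, adjusted p = 0.116). Among the kinetochore genes, Spc25 had a difference of 2.58 ± 0.71 (SE, adjusted p = 0.0746), Cenpa of 1.46 ± 0.60 (SE, adjusted p = 0.178) and Ndc80 of 0.17 ± 0.70 (SE, adjusted p = 0.890). Espl1 had a difference of 1.39 ± 0.47 (SE, adjusted p = 0.119), beside the 1.52 of WT mice. With slide as a block, the smSocs3-KO difference rests on slide 2, without smSocs3-KO replicate 1 before challenge, while the spread comes from all groups. In that fit 0 genes were called (smallest adjusted p = 0.132), and 37 of all genes were called higher. There 8 were past the threshold of the study, beside 0.826% of all genes, and the median difference was 2.13. Leaving out smSocs3-KO replicate 3 before challenge, any of smSocs3-KO replicates 2, 3 and 5 at day 3, or any WT array before challenge, also gave 0 calls. Without smSocs3-KO replicate 4 before challenge there was 1. Over all genes, 26 to 234 were called higher in the fits with 0 calls, and 271 in the last. With slide as a block and without WT replicate 4 at day 3, the smallest adjusted p of the mitosis genes in limma was 0.0109.

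**Figure D3:**
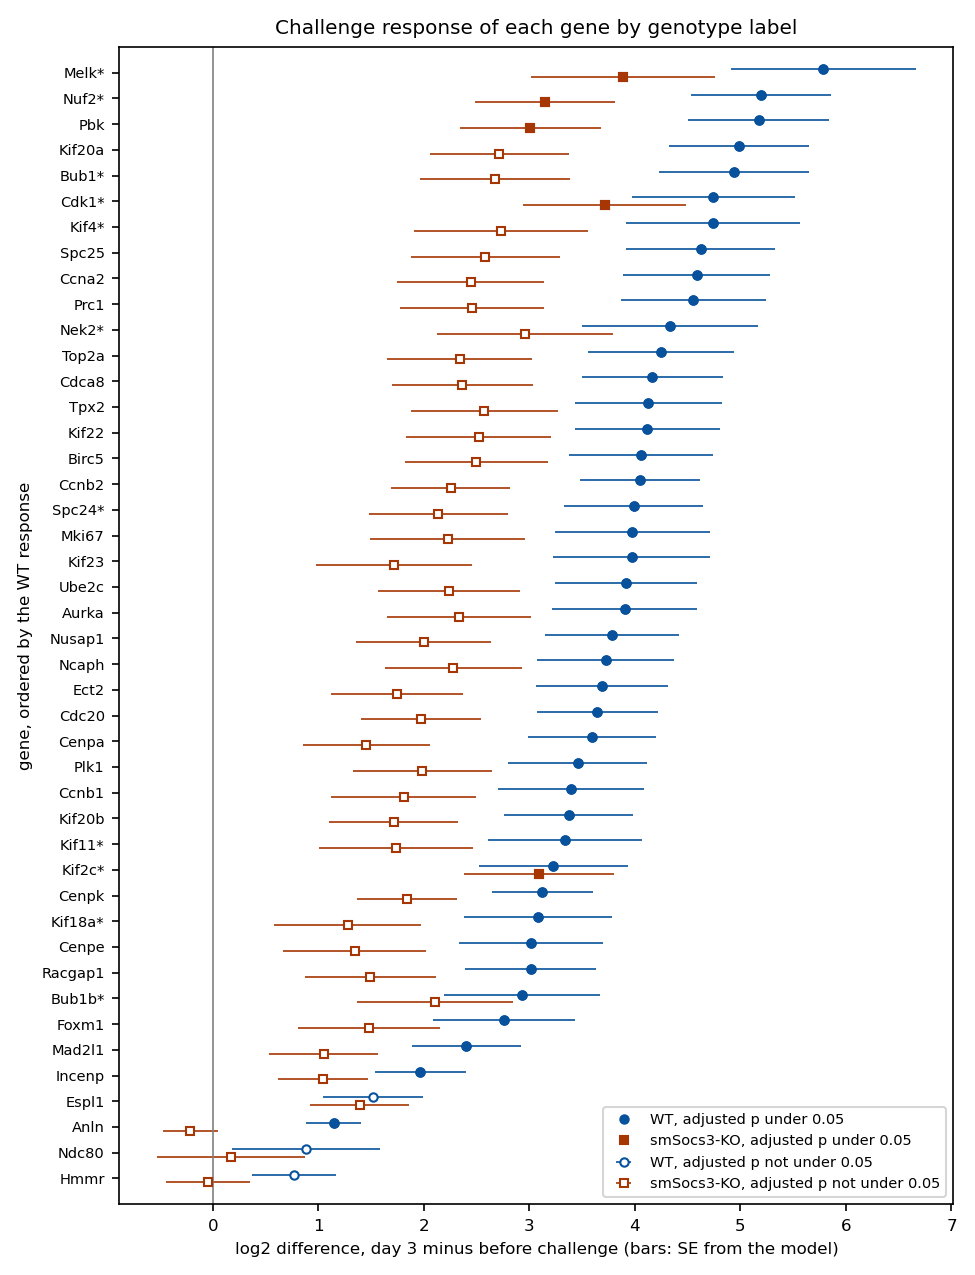
Difference between day 3 and before challenge (log2, x axis) of each of the 44 genes, ordered by the WT value, in WT mice (circles) and mice labelled smSocs3-KO (squares), with the SE of the model. Filled symbols have an adjusted p under 0.05, and for genes with an asterisk, dim on all 3 WT arrays before challenge, the plotted WT value is the fitted one and only a bound is known. The smSocs3-KO value lies to the left of the WT value for all 44 genes.

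Before challenge, no difference between the genotypes was detected in these genes. None of the 44 genes was called by limma, beside 0.0308% of all genes in either direction, and 0 had an unadjusted p under 0.05, beside 4.37%. The differences, smSocs3-KO minus WT, ranged from -0.86 to 0.70 with a median of 0.18. The lowest mean over the 44 genes on any of the 6 arrays was -0.13 and the highest 0.28, relative to the WT mean before challenge.

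At day 3, the mean of the smSocs3-KO arrays was lower than that of the WT arrays for all 44 genes, although for Espl1 not with scaling to the array median and for Ndc80 not with slide as a block. The median difference was -1.48, and only Anln was called, with a difference of -1.28 ± 0.26 (SE, adjusted p = 0.0486). At this threshold 0.180% of all genes were lower. Anln was also the only one of the 44 whose groups did not overlap, beside 14.3% of all genes. Kif20a had the largest difference, -2.06 ± 0.66 (SE, adjusted p = 0.169), and Espl1 the smallest, -0.14 (adjusted p = 0.910). The mean over the 44 genes, relative to the WT mean before challenge, was 4.47, 4.50 and 1.94 on the WT arrays and 3.04, 2.01 and 1.51 on the smSocs3-KO arrays. WT replicates 1 and 3 were above all 3 smSocs3-KO arrays in 44 of 44 genes, beside 26.3% of all genes. WT replicate 4 lay within the range of the smSocs3-KO arrays in 32 genes, below it in 11 and above it in 1, which was Anln. Over all genes these shares were 37.2%, 23.2% and 39.6%. The difference of the challenge responses, smSocs3-KO minus WT, was below 0 for all 44 genes, with a median of -1.66. In limma 0 of them were called (smallest adjusted p = 0.729), and 6 had an unadjusted p under 0.05, beside 5.53% of all genes.

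The day 3 comparison turned on WT replicate 4. Without it, 36 of the 44 genes were lower in smSocs3-KO mice at the adjusted threshold, beside 1.20% of all genes, with a median difference of -2.40, and 34 were past the threshold of the study, beside 0.598%. Cenpa then differed by -2.77 ± 0.36 (SE, adjusted p = 0.0117) and Mki67 by -2.69 ± 0.52 (SE, adjusted p = 0.0295), while Anln was no longer called (adjusted p = 0.0584). The difference of the responses still had 0 calls, with a smallest adjusted p of 0.134. Without the same array, 36 genes rose in smSocs3-KO mice, beside 5.16% of all genes, since the array enters the spread that all comparisons share. All WT arrays of day 3 were on slide 1 and all smSocs3-KO arrays of day 3 on slide 2. Genotype and slide thus cannot be told apart at day 3 except through the arrays before challenge, where only smSocs3-KO replicate 1 shared a slide with WT. With slide as a block and all arrays kept, 0 genes were called at day 3 (smallest adjusted p = 0.213) and 2 were past the threshold of the study. Over all 22755 genes, 119 higher and 64 lower were past it, and 0 were called. With slide as a block and without WT replicate 4, 0 genes were called at day 3 (smallest adjusted p = 0.0959), while the median difference was -2.73. In that fit 30 genes were past the threshold of the study, beside 0.730% of all genes, and 0 of all genes were called. Its slide term too rests on smSocs3-KO replicate 1 before challenge.

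Other genes of the cell cycle rose in differing numbers. Their lists were drawn up from general knowledge, but with earlier results of these data known. The counts are to be read against the 3.50% of all genes that rose in WT mice and the 1.57% in smSocs3-KO mice. At an unadjusted p under 0.05 were 26.6% and 24.3% of all genes. Of 55 other mitosis genes, 46 were tested and 34 rose in WT mice, with a median difference of 3.03. Shcbp1, a protein of the midbody that was dim before challenge, was at least 30.8-fold higher (adjusted p = 0.0282), and Fam64a rose by 5.30 ± 0.75 (SE, adjusted p = 0.0282). The lowest values were those of Kif14, a kinesin of cytokinesis, -0.55 ± 0.28 (SE, adjusted p = 0.240), and Hjurp, the chaperone of Cenpa, -0.31 ± 0.59 (SE, adjusted p = 0.762), and neither was called. In smSocs3-KO mice 2 of the 46 rose, with a median of 1.46. Of 30 genes of replication licensing and S phase, 29 were tested and 15 rose in WT mice, with a median of 1.85. The smSocs3-KO median of these genes was 1.33, with 0 called in limma and 21 at an unadjusted p under 0.05. Tk1, thymidine kinase, rose by 4.09 ± 0.72 (SE, adjusted p = 0.0318) and cyclin E1 (Ccne1) by 3.59 ± 0.68 (SE, adjusted p = 0.0333), while Cdc45 had a difference of 0.40 ± 0.31 (SE, adjusted p = 0.432) and Pola1 of 0.56 ± 0.29 (SE, adjusted p = 0.247).

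Of the 18 regulators of cell cycle transcription, 3 rose in WT mice, with a median of 0.81. They were the repressor E2f8, at least 10.0-fold higher (adjusted p = 0.0367), the pocket protein Rbl1, at 2.27 ± 0.54 (SE, adjusted p = 0.0429), and Lin54, the DNA-binding subunit of the complex that binds CHR elements, at 0.80 ± 0.18 (SE, adjusted p = 0.0388). The pocket protein Rbl2, which acts in resting cells, had a difference of -0.78 ± 0.30 (SE, adjusted p = 0.135), and E2f7 one of -0.11 ± 0.27 (SE, adjusted p = 0.815), on its brightest probe, which had the opposite sign with each other scaling tried. The mean of the kept E2f7 probes gave 1.76, so that its probes disagreed. The 12 core subunits of the anaphase-promoting complex, whose activator Cdc20 and ubiquitin-conjugating enzyme Ube2c rose, had a median of 0.12 in WT mice. None was called in limma, and 5 had an unadjusted p under 0.05. Their values lay between that of Anapc10, -0.91 ± 0.33 (SE, adjusted p = 0.114), and that of Anapc1, 0.56 ± 0.19 (SE, adjusted p = 0.101), with Cdc23 at -0.33 and Cdc16 at 0.43. Of 12 checkpoint and kinetochore genes of broad expression, 11 were tested and 1 rose. This was Nsl1, a subunit of the Mis12 complex of the kinetochore, at 3.03 ± 0.66 (SE, adjusted p = 0.0368). The median of these 11 genes was 0.56, with Pmf1 at 0.84 ± 0.25 (SE, adjusted p = 0.0745), Skp1a at 0.18 and Cenpb at 0.09, both below 0 after quantile normalization.

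**Figure D4:**
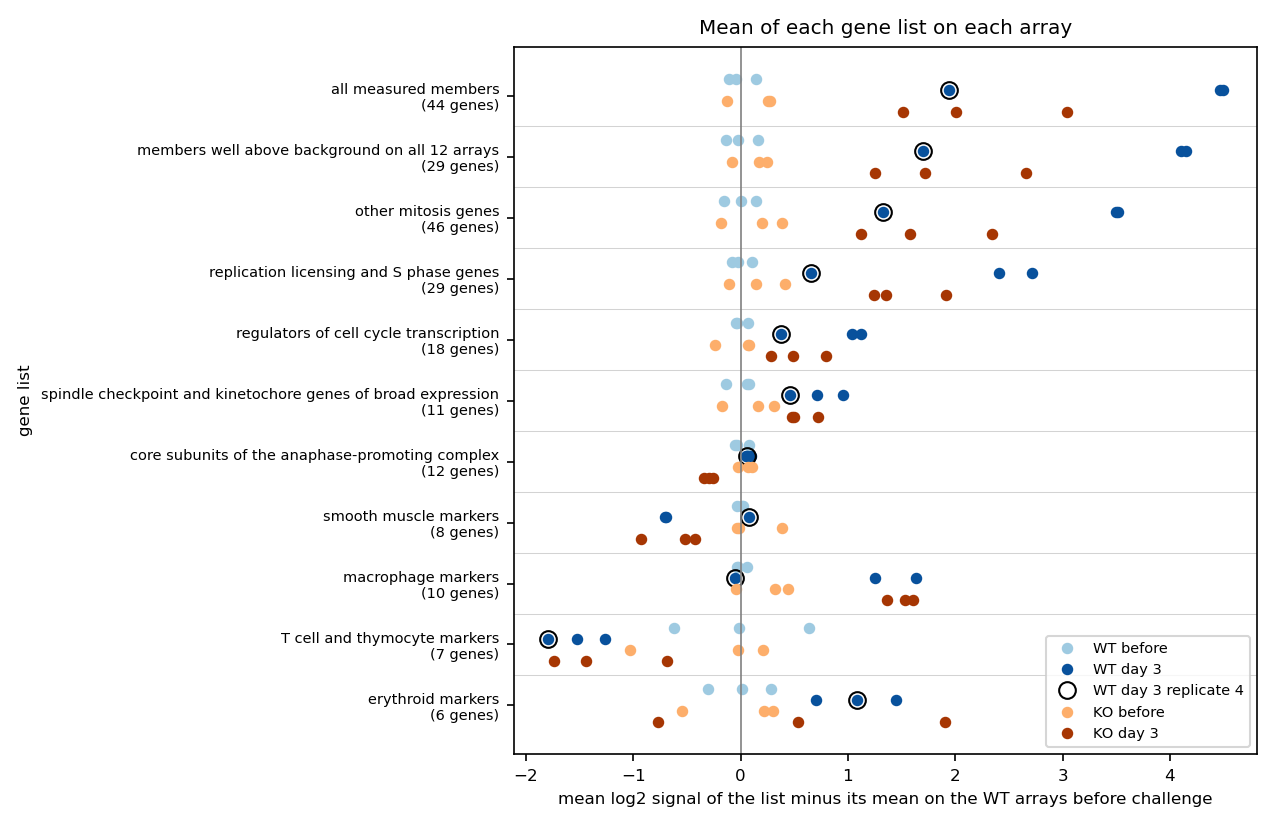
Mean level of each gene list on each array (x axis, log2, relative to the mean of the WT arrays before challenge), with 1 point per array coloured by group and WT replicate 4 at day 3 circled. KO stands for the arrays labelled smSocs3-KO. At day 3 the mitosis lists lie farthest to the right on WT replicates 1 and 3, and the anaphase-promoting complex lies within -0.34 and 0.11 on all arrays. Replicate 4 lies near 0 for the smooth muscle and macrophage markers as well, but not for the T cell and erythroid markers.

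Marker genes of the cell types in the tissue were read beside these results. The tissue was labelled aorta, and all 8 smooth muscle markers, among them Acta2 and Tagln, were well above background on every one of the 12 arrays. None was called in either genotype in limma, with 2 at an unadjusted p under 0.05 in WT mice and 6 in smSocs3-KO mice, and all 8 had lower means at day 3 in both. For the macrophage markers, the mean was -0.03, 0.06 and -0.03 in WT mice before challenge and 1.63, 1.25 and -0.05 at day 3, and -0.04, 0.32 and 0.44 and then 1.60, 1.53 and 1.37 in smSocs3-KO mice. Of the 10, 0 were called in WT mice, with 7 at an unadjusted p under 0.05, and 3, Cd68, Cd14 and Mrc1, rose in smSocs3-KO mice. Of 11 T cell and thymocyte markers, 7 were tested, and Cd3d and Cd3g fell in WT mice by 2.54 and 1.99 on the log2 scale. The mean of the 7 was -0.02, 0.64 and -0.62 before challenge and -1.52, -1.26 and -1.80 at day 3 in WT mice. Erythroid markers, 6 of 8 tested, had a mean of -0.30, 0.02 and 0.29 before challenge and 0.70, 1.45 and 1.09 at day 3 in WT mice, with none called in limma and 2 at an unadjusted p under 0.05. In smSocs3-KO mice at day 3 their mean was 1.91, 0.53 and -0.77, highest on replicate 2 and lowest on replicate 5 as in the mitosis genes, and that of the neutrophil markers was 2.13, 0.43 and 1.17. The part of these cell types in the mitosis genes was not tested.

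Of the other marker lists, none of the 8 fibroblast and 8 endothelial genes was called in either challenge response in limma, and their counts at an unadjusted p under 0.05 were 3 and 0 in WT mice and 2 and 0 in smSocs3-KO mice. None of the 5 tested B cell genes was called, with 1 at an unadjusted p under 0.05 in WT mice and 0 in smSocs3-KO mice. Of the 7 tested neutrophil genes, Mpo was at least 2.08-fold higher (adjusted p = 0.0442) in WT mice, and Ly6g rose in smSocs3-KO mice by 1.54 ± 0.26 (SE, adjusted p = 0.0236). Between the genotypes at day 3, 1 marker of these lists was called, the fibroblast gene Dpt, which was higher in smSocs3-KO mice by 1.97 ± 0.33 (SE, adjusted p = 0.0249). Over all genes tested, 206 of 22755 were called higher in this comparison, and 3781 had an unadjusted p under 0.05 in either direction. Beside that share, 4 of 8 fibroblast, 3 of 8 endothelial, 2 of 10 macrophage, 2 of 7 neutrophil and 2 of 7 T cell markers had an unadjusted p under 0.05. Of the smooth muscle, B cell and erythroid markers, 0 did. The part of these cell types in the genotype difference was not tested either.

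Most promoters of the mitosis and kinetochore genes hold letters that the choice of genes did not use. The cell cycle genes homology region (CHR) is a short element near the start site through which a repressor complex keeps these genes silent in resting cells, and CCAAT boxes, bound by the factor NF-Y, often lie a little upstream of it. Windows from 250 bases before to 50 after the start site were taken from RefSeq (GRCm38.p6), with 1 window per gene, and 41 of the 50 genes had one. The letters TTTGAA (CHR) and CCAAT were searched on both strands, and the motifs can share at most their end letters. TTTGAA was found in 29 of 41 windows (70.7%), compared with 18.1% of the 27025 windows of all genes. Within 50 bases of the start it was found in 27 (65.9%), compared with 4.92%. CCAAT was found in 29 (70.7%), compared with 37.9%, and both TTTGAA within 50 bases of the start and CCAAT in 23 (56.1%), compared with 2.11%. At least 2 copies of CCAAT were found in 19 windows (46.3%), compared with 12.2%. A match is a run of letters and not a measured binding site.

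**Figure D5:**
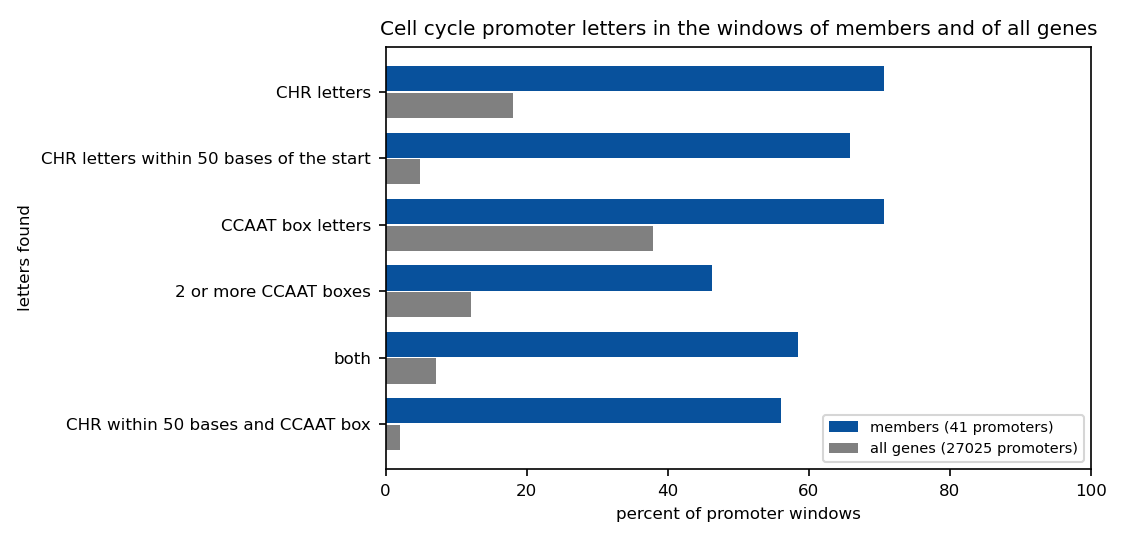
Percent of promoter windows (x axis) of 41 mitosis and kinetochore genes and of all 27025 genes with each set of letters, where CHR stands for TTTGAA. The share of members is higher in all rows, from 70.7% against 37.9% for CCAAT to 56.1% against 2.11% for CHR letters within 50 bases of the start together with CCAAT.

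The 120 bases before the start site are shown, 5′ to 3′ on the strand of the gene, for 5 genes whose CHR and CCAAT letters both lie there, for Ccnb1, which has CCAAT letters alone, and for Melk and Nuf2, which had the largest fitted rises in WT mice and neither set of letters. Capitals mark CHR letters (TTTGAA or its complement TTCAAA) and CCAAT letters (CCAAT or ATTGG).
Cdk1: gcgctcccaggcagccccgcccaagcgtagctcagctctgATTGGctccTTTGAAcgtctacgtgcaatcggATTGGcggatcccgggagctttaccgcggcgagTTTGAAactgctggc
Kif11: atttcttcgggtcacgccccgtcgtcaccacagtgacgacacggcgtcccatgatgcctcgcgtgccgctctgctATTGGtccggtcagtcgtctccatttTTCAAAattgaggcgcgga
Top2a: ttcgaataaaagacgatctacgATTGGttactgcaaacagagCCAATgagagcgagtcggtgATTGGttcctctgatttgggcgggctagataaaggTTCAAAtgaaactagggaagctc
Cdc20: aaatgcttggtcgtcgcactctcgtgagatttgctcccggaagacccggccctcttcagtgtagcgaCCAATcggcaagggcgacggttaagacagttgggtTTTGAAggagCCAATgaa
Espl1: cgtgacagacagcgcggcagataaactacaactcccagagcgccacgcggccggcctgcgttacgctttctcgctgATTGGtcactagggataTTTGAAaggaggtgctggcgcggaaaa
Ccnb1: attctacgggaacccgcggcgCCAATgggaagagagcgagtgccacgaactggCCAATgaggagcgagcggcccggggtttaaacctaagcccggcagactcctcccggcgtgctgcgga
Melk: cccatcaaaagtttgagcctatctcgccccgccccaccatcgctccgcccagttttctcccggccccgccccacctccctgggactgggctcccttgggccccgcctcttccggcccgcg
Nuf2: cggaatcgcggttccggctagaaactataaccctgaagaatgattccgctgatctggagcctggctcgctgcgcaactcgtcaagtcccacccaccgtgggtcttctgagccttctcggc

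These stretches lie on GRCm38.p6 at chr10:69352913-69353032 (minus strand) for Cdk1, chr19:37376262-37376381 (plus strand) for Kif11, chr11:99024190-99024309 (minus strand) for Top2a, chr4:118437344-118437463 (minus strand) for Cdc20, chr15:102296173-102296292 (plus strand) for Espl1, chr13:100786487-100786606 (minus strand) for Ccnb1, chr4:44300797-44300916 (plus strand) for Melk and chr1:169531465-169531584 (minus strand) for Nuf2. In Cdk1, Kif11, Top2a, Cdc20 and Espl1, a copy of the CHR letters lies less than 30 bases before the start with CCAAT letters upstream of it, and in Cdc20 CCAAT letters also follow it. Among genes with a window and a measured probe, the 23 with CHR letters within 50 bases of the start had a median fitted WT difference of 3.69, from 0.77 for Hmmr to 4.74 for Cdk1, and the 14 without had a median of 3.75, from 2.40 for Mad2l1 to 5.79 for Melk. Anln, Ndc80, Hmmr and Espl1 each have TTTGAA within 50 bases of the start, Hmmr with 5 copies of CCAAT, Espl1 with 1, and Anln and Ndc80 with 0 copies. Of the related lists, CHR letters within 50 bases of the start were found in 19 of 42 windows of other mitosis genes, 1 of 23 of replication and S phase genes, and 0 of 11 of core subunits of the anaphase-promoting complex.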

How the data were processed

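Groups and replicate numbers of the 12 one-colour arrays of aortic RNA came from the sample labels. Per the file headers, the authors scanned the arrays and extracted linear intensities of the spots, with background subtraction and spatial detrending. The Feature Extraction version is 10.7.1.1 in the file headers and 9.5.1.1 in the submitters' processing notes. The authors also deposited a table of quantile-normalized intensity values, used as an alternative. Here, log2 of the processed signal minus the 75th percentile of the array was taken, control spots and outlier marks were left out, and 32275 of 55681 probes were kept because all their spots were well above background throughout at least 1 group. The highest kept probe by mean stood for its gene. The 4 group means were fitted with limma 3.58.1 (R 4.3.3) over 22755 genes, and the code was tested on simulated data. Nothing in the labels says that replicates were different mice, so p-values measure the spread between these arrays, whose number (3 per group) limits the precision. Dim genes got a lower bound on their fold change. The bound sets the mean of the bright group against that of the dim group, where each dim array takes the lowest signal well above background or the probe's own, whichever is higher. The mitosis genes, the related lists and the genes named were chosen with earlier results of these data known. The genes named were about 25 members set out by role, the extreme responders, members whose probes disagreed, and, in each related list, the extreme values. Alternatives were tried for the background correction, normalization, filter, probe choice, variance moderation, arrays in the fit, slide, replicate number and each array left out, and slide with WT replicate 4 left out at day 3 was added after the data had been seen.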

Additional observations from a re-analysis of the deposited data

How the results depend on the processing

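Of 2599 values of single genes under alternative settings, 2098 kept their direction and side of the threshold, 365 lost the call, 95 gained it and 41 changed sign. The WT median difference was 2.47 with normexp background correction and 4.75 with slide as a block and without WT replicate 4 at day 3. Mitosis genes called in WT mice were 2 without a filter on dim probes, 26 when genes had to be well above background on each of the 12 arrays (24 past the threshold of the study), and 0 in a fit of these groups alone. Over all genes, 5 of 34794, 938 of 19534 and 0 of 22755 were called higher in these settings, in that order. Leaving out each array in turn gave 0 to 43 calls, beside 0 to 2177 of all 22755 genes called higher. It also gave 37 to 41 genes past the threshold of the study and medians of 3.40 to 4.75. In the smSocs3-KO response, 0 genes were called with normexp (3 past the threshold of the study, median 1.15), without the filter, among genes above background on all 12 arrays (12 past that threshold), with slide as a fixed block (8) and with slide as a random block. Over all genes, those called higher were 533, 112, 330, 37 and 187 in these settings, in that order. Scaling to the array median gave 20 calls, the fit of both groups alone 13, and slide as a block without WT replicate 4 gave 28. Over all genes, 765, 269 and 742 were called higher in these fits. Leaving out each array gave 0 to 36 calls, beside 26 to 1175 of all genes called higher. It also gave 6 to 27 genes past the threshold of the study and medians of 1.72 to 2.51. Before challenge, 0 to 0 genes were called, and medians ran from 0.02 to 0.37. At day 3, 0 genes were called with normexp, array median scaling, no filter, the fit of both groups alone, slide as a fixed block and slide as a random block. Over all genes, those called lower were 49, 19, 11, 6, 0 and 0 in these settings, in that order. In that comparison 1 gene was past the threshold of the study without the filter, among genes above background on all 12 arrays, with the mean of kept probes and with trended moderation, and 2 with slide as a fixed block. Slide as a block without WT replicate 4 gave 0 calls, 30 genes past that threshold and a median of -2.73. Leaving out each array gave 0 to 36 calls, 0 to 34 genes past that threshold and medians of -2.40 to -1.03. For the difference of the responses, medians ran from -2.54 to -1.21 without single arrays and 0 to 0 genes were called, and the median was -2.67 with slide as a block and without WT replicate 4. Residual correlations between arrays of the same replicate number ran from -0.40 to 0.46. They were 0.46 and 0.33 between the genotypes before challenge but below 0 within WT mice, so the numbers were not taken to pair the samples. With the replicate number as a block, 0 genes were called in either response or at day 3, 1 was past the threshold of the study in the smSocs3-KO response, the median of the difference of the responses was -2.63, and Hjurp in WT mice was at 0.0854. Scaling to the array median moved the median of all genes from -0.04 to 0.14 in WT mice and from -0.11 to 0.13 in smSocs3-KO mice. The cause of these changes was not tested.

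Values that changed sign were small in most cases. In WT mice, Hjurp was at 0.4959 with slide as a block and without WT replicate 4 at day 3, and ranged from -0.9987 to 0.4959 as each array was left out. E2f7 was at 1.34 with normexp, 0.0699 with quantile normalization, 0.0742 with array median scaling, 0.0705 in the deposited table, 1.76 as the mean of kept probes and 0.0055 with the replicate block, and ranged from -0.4204 to 0.1046 without single arrays. Cenpb was at -0.1002 with quantile normalization, -0.1000 in the deposited table and -0.1437 as the mean of kept probes. Skp1a was at -0.0320 and -0.0318 in the first pair of these settings and at -0.0024 with slide as a block and without WT replicate 4, with a range of -0.0024 to 0.3456 without single arrays. In the smSocs3-KO response, Ndc80 was at -0.0147 with normexp and -0.2030 with the replicate block, and ranged from -0.2344 to 0.9004 without single arrays. Anln was at 0.0252 with array median scaling and ranged from -0.4810 to 0.0646. Hmmr was at 0.0049 with normexp, 0.1880 with array median scaling, 0.1814 with slide as a fixed block, also without WT replicate 4, and 0.0550 with slide as a random block, and ranged from -0.2812 to 0.1814. At day 3, Ndc80 was at 1.35 with slide as a fixed block, 0.1555 with slide as a random block and 0.5248 with slide as a block and without WT replicate 4. Espl1 was at 0.0294 with array median scaling and ranged from -0.6446 to 0.1430. Socs3 was at -0.2028 before challenge with slide as a block, with or without WT replicate 4, and at -0.0654 at day 3 with slide as a block and without that array.

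Signal over background limits the dim genes, of which 11 in WT and 6 in smSocs3-KO mice have a bound only, and the 6 untested genes have no difference at all. Bounds in place of fitted values lowered the WT median from 3.84 to 3.66.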
